A study of Mus musculus with 4 samples.

Results

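The strong distal regions of mouse calf muscle were the 1378 regions of acetylated histone H3 that combined a high signal with a position far from any annotated gene start. They were chosen by 3 limits applied to the deposited list of replicated regions on chromosomes 1 to 19: a signal value of 20 or more, a width under 8000 bp, and more than 5 kb to every transcript start of any gene type in the GENCODE M21 basic set. They made up 1.63% of the 84452 regions of that list and 13.3% of its 10345 regions on these chromosomes with a signal value of 20 or more. Another 7453 of those strong regions lay at starts of protein-coding genes, and 138 lay away from starts but were 8000 bp or wider. The 49486 regions that met the same limits of width and distance but had a signal value under 20 are called weaker distal regions here. They stand beside the members in most comparisons, but not for the gene lists or for the distance from member to member. Signal, width and distance selected the members, so these measures are given only as a description.

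The mark is acetylation of lysine 27 of histone H3 (H3K27ac), measured by chromatin immunoprecipitation and sequencing in gastrocnemius tissue of female adult B6CASTF1/J mice, a first-generation hybrid strain, aged 2 months. There was 1 group of samples with 2 biological replicates, each a pool of 2 tissue samples, and each replicate had 2 technical libraries that were merged in the deposited lists. The labels name 1 donor record for all 4 libraries, so the spread between the replicates is a spread between pools of the same kind of animal, without treatment or genotype groups. Whole muscle was used, so fibres, vessels, connective tissue and immune cells contributed, and a region used by few cells cannot be told apart from one weakly acetylated in many. The lists hold no read counts and the depth is unknown. The labels and headers do not state the scale of the signal value, so it was compared only within a list. With 1 group and 2 replicates no difference was tested, and values of both single-replicate lists are given instead. For motifs and position these lists in part describe the same DNA, so their gap is not a full measure of spread.

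H3K27ac is deposited by the coactivators p300 and CBP on nucleosomes next to active promoters and enhancers. Enhancers are stretches of DNA away from gene starts that bind transcription factors and raise transcription of a gene on the same chromosome, often across other genes. In skeletal muscle the myogenic factors of the MyoD family bind E-boxes and the MADS-box factors of the MEF2 family bind an AT-rich element, and both families act together on many muscle enhancers. GC-rich DNA that has kept its CpG dinucleotides is typical of promoters instead, where GC boxes bind factors of the SP and KLF families.

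Below are stretches of 200 bases from the summit windows of 7 members, shown because they hold the muscle factor motifs around which the results turn. The summit is the position of highest signal given in the list, and a summit window here spans 250 bp to each side. Capitals mark each MEF2 site and each copy of CAGCTG, the E-box preferred by MyoD and myogenin, on either strand. The first 5 hold both kinds and the most matches in all: 3 members had 4 matches in the summit window, and of the 20 with 3 matches the 2 with the highest signal value are shown. The last 2 are the strongest members assigned to Ppard, which encodes a nuclear receptor of fatty acid use, and Rbfox1, which encodes a splicing factor of muscle and neurons. Coordinates are mm10, counted from 1, and each sequence runs 5′ to 3′ on the plus strand.
Tanc1 intron, chr2:59829335-59829534, plus strand: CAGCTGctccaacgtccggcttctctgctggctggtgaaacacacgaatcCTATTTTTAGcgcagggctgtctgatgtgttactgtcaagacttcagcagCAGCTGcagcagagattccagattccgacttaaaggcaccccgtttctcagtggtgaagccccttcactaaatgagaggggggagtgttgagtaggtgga
Myo10 intron, chr15:25774927-25775126, plus strand: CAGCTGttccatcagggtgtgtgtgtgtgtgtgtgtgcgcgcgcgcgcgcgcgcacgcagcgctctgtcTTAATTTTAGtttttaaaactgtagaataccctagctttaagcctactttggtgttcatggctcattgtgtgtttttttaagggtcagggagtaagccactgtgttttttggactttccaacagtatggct
Eml1 intron, chr12:108386738-108386937, plus strand: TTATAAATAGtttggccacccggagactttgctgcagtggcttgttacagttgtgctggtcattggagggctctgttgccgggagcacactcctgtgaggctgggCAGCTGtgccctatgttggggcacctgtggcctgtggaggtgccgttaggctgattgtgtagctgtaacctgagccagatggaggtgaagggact
Sept11 intron, chr5:93137028-93137227, plus strand: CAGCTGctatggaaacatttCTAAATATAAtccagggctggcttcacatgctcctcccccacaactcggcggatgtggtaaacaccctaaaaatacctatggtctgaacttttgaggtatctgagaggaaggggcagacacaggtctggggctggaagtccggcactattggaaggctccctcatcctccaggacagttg
Pik3c2b intron, chr1:133083968-133084167, plus strand: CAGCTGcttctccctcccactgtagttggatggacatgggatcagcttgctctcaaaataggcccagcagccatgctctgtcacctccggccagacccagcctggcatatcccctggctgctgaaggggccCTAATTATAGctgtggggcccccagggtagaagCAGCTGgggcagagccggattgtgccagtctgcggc
Ppard intron, chr17:28247638-28247837, plus strand: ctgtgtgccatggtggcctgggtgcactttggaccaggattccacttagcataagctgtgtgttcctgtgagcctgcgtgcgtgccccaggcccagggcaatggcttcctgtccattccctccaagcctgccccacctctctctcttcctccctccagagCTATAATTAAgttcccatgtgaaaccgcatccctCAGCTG
Rbfox1 intron, chr16:7089481-7089680, plus strand: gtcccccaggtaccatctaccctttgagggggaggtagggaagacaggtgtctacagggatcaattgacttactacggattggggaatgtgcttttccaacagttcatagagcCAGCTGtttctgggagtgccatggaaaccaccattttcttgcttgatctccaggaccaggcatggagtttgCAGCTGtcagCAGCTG

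The Tanc1 and Pik3c2b stretches each held 1 MEF2 site and 2 E-boxes, and the Rbfox1 stretch held 3 E-boxes and 0 MEF2 sites. In the other 4 stretches 1 MEF2 site and 1 E-box stood together. All 7 members lay in introns, and that of Myo10 also held a curated RefSeq start of this gene. The printed stretches were between 47.5% and 61% GC, with 1 to 10 CG dinucleotides each.

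The next set is the same length, centred on the summits of the 3 members with the highest signal value, and capitals mark each CG dinucleotide. It is shown because these members have the base composition of promoters although no start of the GENCODE basic set was within 5 kb.
intergenic, 33185 bp from Pum2, chr12:8640849-8641048, plus strand: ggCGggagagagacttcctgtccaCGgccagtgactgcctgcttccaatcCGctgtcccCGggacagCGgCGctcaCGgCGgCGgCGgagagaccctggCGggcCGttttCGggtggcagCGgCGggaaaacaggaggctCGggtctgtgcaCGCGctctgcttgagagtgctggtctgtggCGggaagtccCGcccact
Bicral intron, chr17:46857290-46857489, plus strand: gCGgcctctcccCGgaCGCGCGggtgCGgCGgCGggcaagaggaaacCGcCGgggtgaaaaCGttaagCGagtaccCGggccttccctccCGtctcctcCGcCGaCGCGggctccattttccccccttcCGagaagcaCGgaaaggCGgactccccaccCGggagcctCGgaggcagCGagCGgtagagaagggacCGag
intergenic, 16322 bp from Zfp239, chr6:117879299-117879498, plus strand: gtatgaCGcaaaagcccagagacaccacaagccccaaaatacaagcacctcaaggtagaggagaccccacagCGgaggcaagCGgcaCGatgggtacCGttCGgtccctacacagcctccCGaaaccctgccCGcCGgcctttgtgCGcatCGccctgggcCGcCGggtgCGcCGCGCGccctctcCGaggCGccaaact

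These 3 stretches held 20, 26 and 19 CG dinucleotides in the order printed, at 69%, 70.5% and 65.5% GC, and none held a MEF2 site or a CAGCTG E-box.

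MEF2 sites and E-boxes of the MyoD type were found more often at the summits of strong distal regions than at those of weaker ones. A MEF2 site was present in 193 of the 1378 summit windows (14.0%), against 8.69% of weaker distal regions and 8.84% of all distal regions. The same rule applied to the replicate 1 list gave 12.2% of 704 strong regions against 8.83% of weaker ones, and in the replicate 2 list 13.2% of 1740 against 8.98%. The CAGCTG E-box was present in 520 windows (37.7%), against 31.4% of weaker distal regions and 31.6% of all distal regions. In the replicate 1 list the E-box shares were 38.6% and 31.6%, and in the replicate 2 list 37.5% and 30.7%. Both differences had the same direction in both lists: 3.38 and 4.24 percentage points for MEF2, and 7.05 and 6.81 for the E-box. The lists share many of the same windows. Of the strong distal regions of replicate 1, 85.9% were also strong distal regions of replicate 2, and 34.6% the other way. The gap between the lists therefore does not measure the spread of a motif share. The 138 strong regions away from starts that were 8000 bp or wider were counted in the replicated list only. A MEF2 site stood in 9 of them (6.52%, exact 95% binomial interval 3.03% to 12.0%, counting error only), not above the weaker share. The E-box stood in 55 (39.9%, interval 31.6% to 48.5%). Their median width was 10204 bp against 3547.5 bp for members, so the summit window covered a smaller part of them. Weaker distal regions had a median width of 707 bp and a lower quartile of 418 bp. The 500-bp window was thus wider than many weaker regions, whereas the lower quartile of members was 2544.5 bp. The comparison was not matched for width.

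A MEF2 site and a CAGCTG E-box in the same window were found in 74 members (5.37%), against 2.30% of weaker distal regions. The strong regions of replicate 1 had both in 5.54% of windows and those of replicate 2 in 4.89%. In windows of 500 bp lying 5 kb from member summits that overlapped no region of the replicated list, 8.42% held a MEF2 site, 21.4% the E-box and 1.69% both (n = 1770 windows). The share of MEF2 sites in that flank, where no signal was measured, was close to that of weaker distal regions, whereas its E-box share was below both kinds of region.

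The shares of the 2 motifs were higher in the upper than in the lower classes of signal value. Width rose along these classes too, from a median of 508 bp at a signal value under 5 to 4104 bp at 30 or more. The shares by class were not matched for width. MEF2 sites stood in 8.20% of windows at a signal value under 5 and in 9.01%, 11.1% and 11.3% of windows from 5 to 10, 10 to 15 and 15 to 20. Members of 20 to 30 had 13.6% and members of 30 or more had 15.1%. E-boxes went from 29.9% in the lowest class to 37.4% in the class just under the limit, 36.5% at 20 to 30 and 41.0% at 30 or more. Windows with both went from 2.01% to 7.27%. E-box shares just below and just above the limit of 20 were alike. At the very top the shares were lower again: of the 50 members with the highest signal value 6 held a MEF2 site and 9 the E-box, and of the 100 highest 13 and 32.

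**Figure D1:**
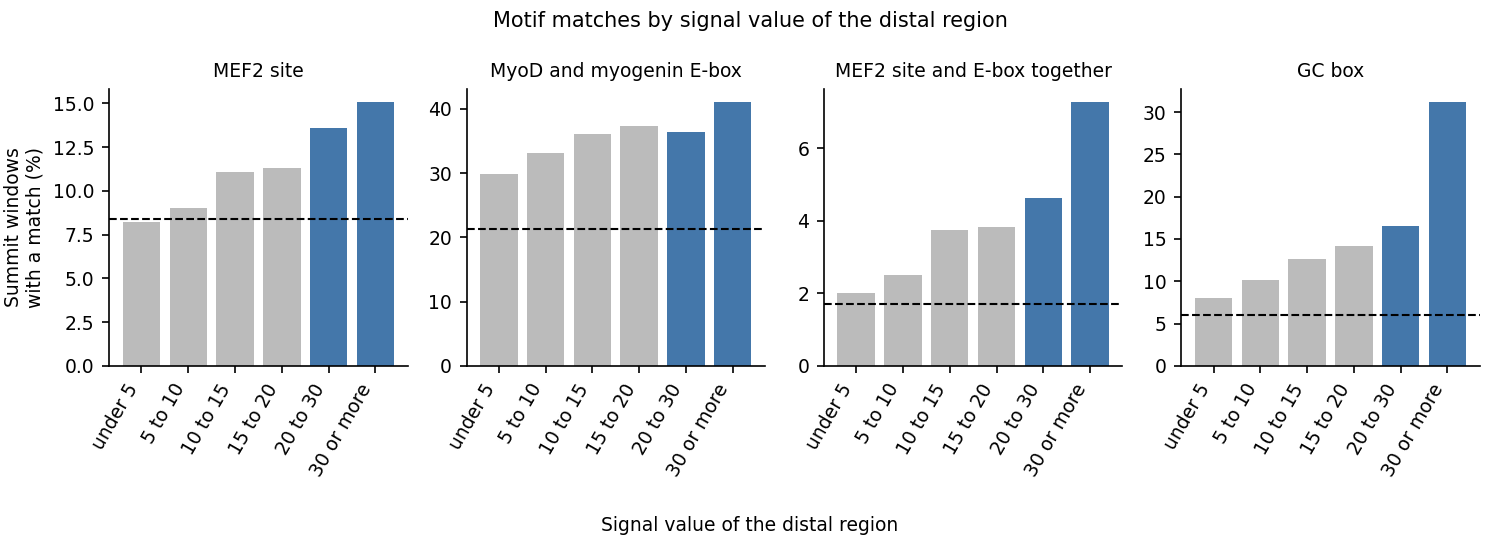
Percent of 500-bp summit windows of distal regions with a MEF2 site, a CAGCTG E-box, both, or a GC box, by signal value. Grey bars are weaker distal regions and blue bars are members. The dashed line is the share in windows 5 kb from member summits that overlap no region of the replicated list. MEF2 shares go from 8.20% in the lowest class to 15.1% in the highest, and GC boxes from 7.99% to 31.2%.

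The matches were not centred on the summit. In the 1258 members without a CpG-rich window, defined below, MEF2 sites occurred at 0.0795 per kb within 100 bp of the summit, 0.541 per kb from 100 to 200 bp and 0.384 per kb from 200 to 400 bp. Beyond that they returned to 0.189 per kb from 400 to 1000 bp and 0.162 per kb from 1000 to 2000 bp. Weaker distal regions of the same kind had 0.111, 0.239, 0.249, 0.201 and 0.193 per kb in these zones. The members therefore exceeded the weaker regions between 100 and 400 bp on either side, and were below them within 100 bp of the summit and in both zones beyond 400 bp. Those 2 outer zones lay outside many of the weaker regions, whose median width was 707 bp against 3631 bp for these members.

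E-boxes of the MyoD type were spread more evenly, with 0.882 per kb within 100 bp of member summits, 1.05 per kb from 100 to 200 bp, 1.05 per kb from 200 to 400 bp and 0.645 per kb from 400 to 1000 bp. The weaker regions had 0.792, 0.774, 0.711 and 0.541 per kb. The size of the window therefore decided the size of the difference. With 150 bp to each side of the summit, members exceeded weaker regions by 0.692 percentage points for MEF2 and 2.03 for the E-box, and with 500 bp to each side by 6.59 and 8.92 points. TEAD sites (GGAATG), which bind the effectors of Hippo signalling, showed neither a rise nor a dip in members, at 0.565 to 0.599 per kb in all 5 zones.

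**Figure D2:**
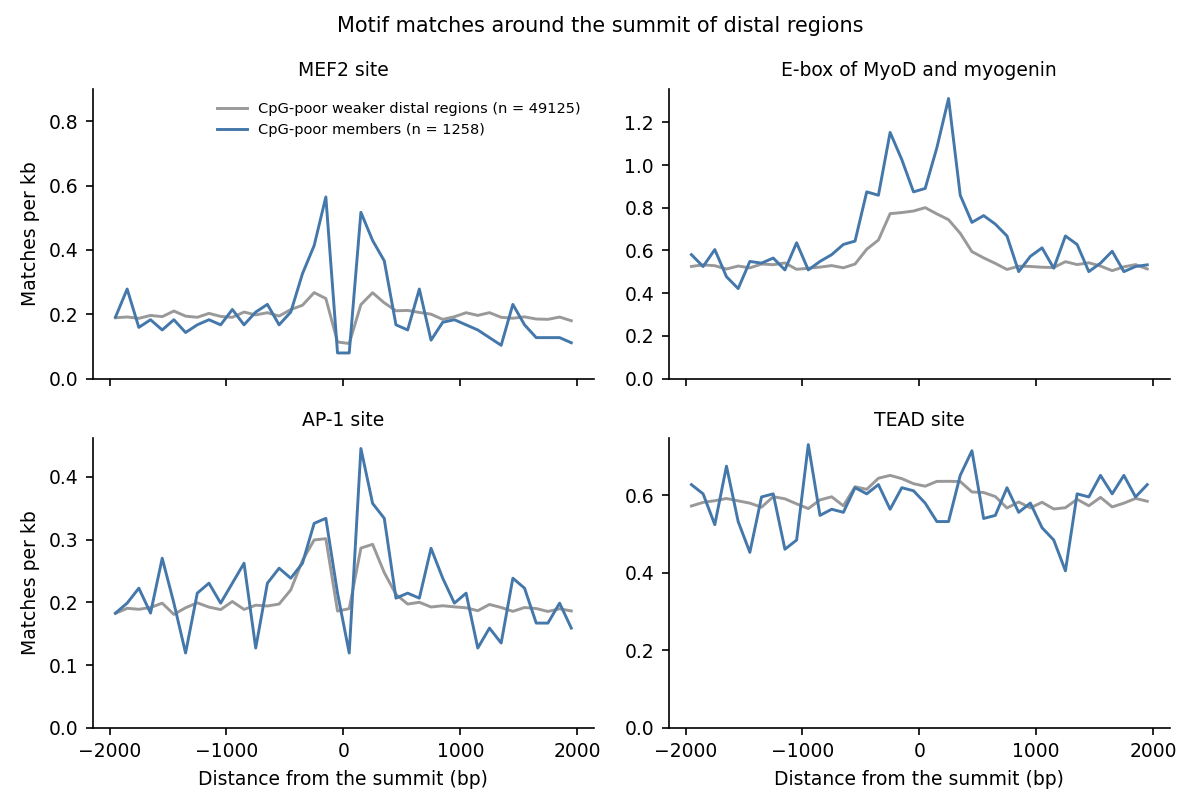
Motif matches per kb in bins of 100 bp up to 2000 bp from the summit, for members and weaker distal regions without a CpG-rich window. MEF2 sites of members form a hump on each side of the summit between 100 and 400 bp with a dip at the summit, and AP-1 sites show the dip too. TEAD sites are flat in members. In weaker regions they stand at 0.627 to 0.642 per kb within 400 bp of the summit and at 0.582 per kb from 1000 to 2000 bp.

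Other motifs moved in both directions. Of 29 motifs searched, 15 were more frequent in strong than in weaker distal regions of the replicated list and of both single-replicate lists, 7 were less frequent in all 3, and 7 differed in direction between the lists. GATA sites (AGATAA), bound by factors of blood, endothelial and other cells, stood in 16.9% of member windows against 23.1% of weaker ones. TEAD sites stood in 23.7% against 26.5%. AP-1 sites (TGAGTCA), bound by FOS and JUN, stood in 13.3% against 11.7%, and ETS sites (CCGGAAG) in 4.35% against 2.76%. The CArG box of serum response factor differed little, at 2.76% against 2.57%. The GC box (GGGCGG) had the widest gap, 20.6% against 9.05%. E-boxes of any type (CANNTG, which includes CAGCTG) stood in 93.1% of member windows and 94.3% of weaker ones, so nearly every window held one and presence could not tell the classes apart. Besides the MyoD type, the clock type (CACGTG) was more frequent in members, at 9.14% against 7.00%.

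Base composition moved with these shares. The median GC content of the summit windows was 51.0% in members and 47.2% in weaker distal regions, and the median ratio of observed to expected CpG was 0.254 and 0.206. With only windows of 45 to 55% GC on both sides, a comparison added after the values had been seen, the MEF2 difference was 8.38 points and the E-box difference 4.12 points. With only windows that were not CpG-rich, MEF2 sites stood in 15.2% of members against 8.74% of weaker regions, the E-box in 39.0% against 31.4%, and the GC box in 14.9% against 8.65%.

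A minority of the strong distal regions looked like promoters by sequence. A window was called CpG-rich where its GC content was above 50% and its CpG ratio at least 0.6, limits set after the values had been seen. 120 members (8.71%) were CpG-rich, against 361 of the weaker distal regions (0.729%) and 0.946% of all distal regions, and against 84.7% of strong regions at coding starts. Their median signal value was 32.2, and that of the other 1258 members was 25.05. GC boxes stood in 96 of their 120 windows, ETS sites in 15 and MEF2 sites in 2. CpG-rich members were mostly intergenic (65.0%), whereas 42.4% of the other members were.

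**Figure D3:**
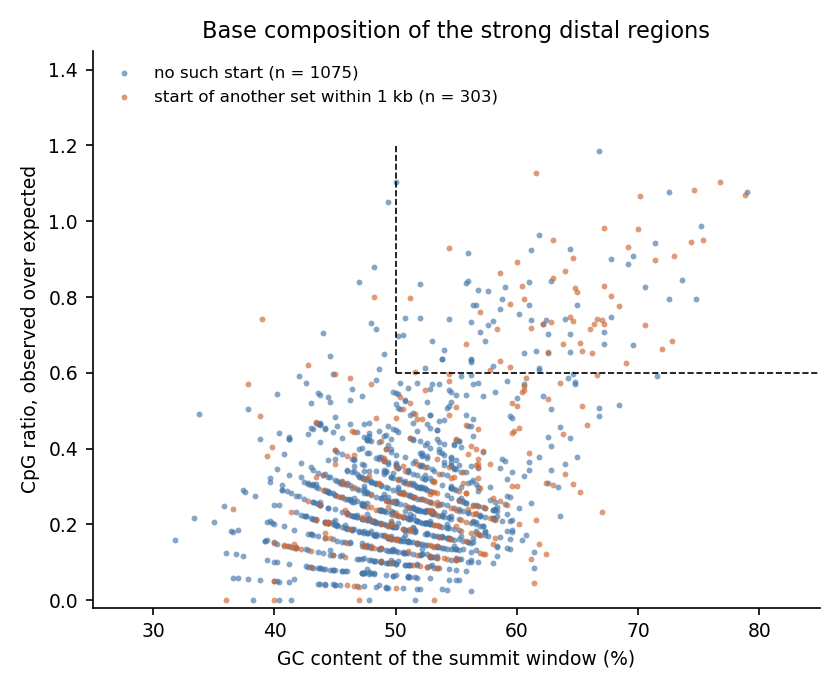
GC content of each member's summit window against its ratio of observed to expected CpG, coloured by whether the comprehensive GENCODE set or RefSeq has a start within 1 kb. Dashed lines enclose the 120 CpG-rich members, and most of the other 1258 members lie below a CpG ratio of 0.4.

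Starts that the GENCODE basic set lacks lay near some of these regions. The comprehensive GENCODE M21 set or the RefSeq annotation had a transcript start within 1 kb of 303 members (22.0%), against 8.69% of weaker distal regions. The 1 kb was counted from the region's edge, so the wider members (median 3547.5 bp against 707 bp) reached over more DNA. Among CpG-rich weaker distal regions 123 of 361 (34.1%) had such a start, and among the other weaker ones 8.50%. Of the CpG-rich members 54 (45%) had such a start and 66 had none, and of the other members 249 (19.8%) had one. Most of these were predicted RefSeq models or non-basic transcripts, since a curated RefSeq start lay within 1 kb of 48 members, 20 of them CpG-rich. Among these 48 were starts of Celf2, a splicing regulator, with a region of signal value 52.0, Nhej1, a DNA end-joining factor (47.7), Ssh2, a cofilin phosphatase (38.1), Zbtb38, a reader of methylated DNA (34.3), and Plcb4, a phospholipase C (32.7). Starts of Asb5, an ankyrin repeat protein of muscle, lay near 2 of them, with signal values of 26.5 and 25.9. Without the 303 members and the weaker regions of the same kind, the MEF2 difference was 6.30 points and the E-box difference 6.60 points.

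Members of this promoter-like kind were a majority of the strongest 15, but not of the strongest 50 or 100. Of the 15 with the highest signal value 9 were CpG-rich, 12 were intergenic, 0 held a MEF2 site and 1 held a CAGCTG E-box in the summit window. Of the strongest 50, 24 were CpG-rich and 6 held a MEF2 site, and of the strongest 100 the counts were 36 and 13. At the top stood the region 33185 bp upstream of Pum2, which encodes an RNA-binding repressor of translation (chr12:8640315-8641811), with a signal value of 68.3. It had 59.9 in replicate 1 and 62.6 in replicate 2. The nearest start in any of the sets used lay 32281 bp from it. Next were a region in an intron of Bicral, a subunit of a chromatin remodelling complex (chr17:46853922-46859505, 62.4), and one 16322 bp downstream of a start of Zfp239 (chr6:117878598-117881486, 61.9), both with a RefSeq start inside them.

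Spen and Ddit4 were the nearest genes of the strongest members that were not CpG-rich. The region 21259 bp upstream of Spen, which encodes a transcriptional repressor (chr4:141557736-141561044), had a signal value of 60.4, with 49.9 in replicate 1 and 60.9 in replicate 2. The region 18256 bp upstream of Ddit4 (chr10:59969095-59975713) had 56.8, with 48.7 and 53.0. Ddit4 encodes an inhibitor of mTORC1 that is induced by glucocorticoids and by stress. In replicate 1 the top 15 had signal values from 40.3 to 59.9 and in replicate 2 from 33.5 to 62.6. The lowest replicate 2 value belonged to a region 184462 bp upstream of Foxn2, at percentile 93.9 of that list and 98.5 of replicate 1.

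All 1378 members overlapped a region of both single-replicate lists by at least 50% of the shorter region, against 56.9% of all distal regions. This share follows in part from the choice by signal, since all weaker distal regions of 10 to 20 were also in both lists. Taking for each member the single-replicate region with the most overlap, members had a median percentile of 88.03 among the 70953 regions of replicate 1 and 91.2 among the 86937 of replicate 2. Both percentiles were at least 80 for 1347 members (97.8%). The signal value was 20 or more in replicate 1 for 592 members and in replicate 2 for 1322. Applied to each list alone, the rule gave 704 regions in replicate 1 and 1740 in replicate 2, and 567 members met the whole rule in both. The limit of 20 was not scaled to each list, so it need not be equally strict in both. Of the strong distal regions of replicate 1, 85.9% were also strong distal regions of replicate 2, and 34.6% the other way.

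The lists also cut the same chromatin differently. In replicate 1, 458 members (33.2%) were split into 2 or more regions, up to 6, and in replicate 2, 145 (10.5%), up to 3. The percentiles of 9 members differed by more than 20 points between replicates. The region near Epcam (chr17:87547784-87550352) was at percentile 94.9 in replicate 2 and 32.4 in replicate 1, where it was split into 3 pieces. The region in an intron of Myom1, which encodes the M-band protein myomesin, was at 89.1 in replicate 1 and 64.6 in replicate 2, where it was split into 2 pieces. For a split region the percentile is that of the piece with the most overlap. These 2 regions were picked for their gap.

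**Figure D4:**
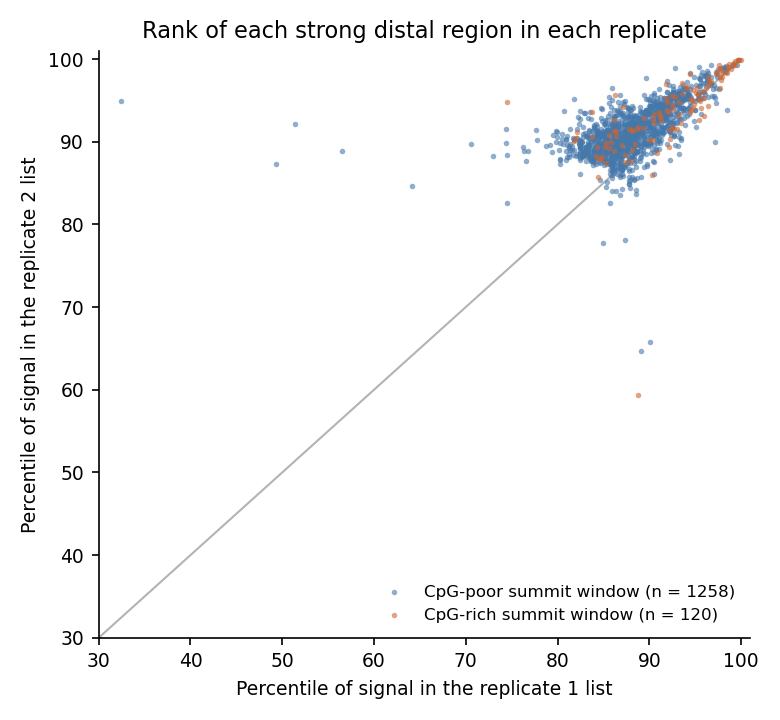
Percentile of signal of each member among all regions of the replicate 1 list and of the replicate 2 list, with the line of equal percentiles in grey. Most members lie above percentile 80 on both axes and above the line, and 9 members lie more than 20 points from it.

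At the limits the members passed by small margins into a continuous range. The lowest signal values inside were 20.01, near Dlg1, and 20.04, and the highest outside were 19.995, near Tsen15, and 19.99, near Rd3. The widest member, near Coro6, measured 7985 bp, and the narrowest region left out for width measured 8004 bp, near Irf2bpl. The member closest to a start, in Tpcn1, lay 5001 bp away and the nearest left out, near Bhlhe40, lay 4994 bp away. Within these limits members had widths with a median of 3547.5 bp and quartiles of 2544.5 and 4881.75 bp, and a median signal value of 25.4. They covered 5.28 Mb.

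Members lay between genes more often than weaker distal regions did, but strong regions of 8000 bp or wider did not. Of those 138 wide regions away from starts, 84.8% had the summit inside a protein-coding gene. The summit was inside a protein-coding gene in 766 members (55.6%), 710 in introns and 56 in exons, against 65.8% of weaker regions and 65.5% of all distal regions. By signal class the share went from 67.4% under 5 to 58.5% at 20 to 30 and 48.1% at 30 or more. The rule gave 53.0% in the replicate 1 list and 57.9% in the replicate 2 list. Weaker regions had 66.2% and 66.4% there, so strong regions within the width limit were lower in both. Without members near starts of the other sets the share was 51.5%. The 623 host genes were long, with a median length of 98.8 kb against 17.6 kb for all coding genes. The most members, 16, lay in Gm20388, a model of 4434882 bp that spans many other genes, followed by Arhgap26, a regulator of small GTPases, with 7, and Gse1, part of a histone deacetylase complex, with 6. For 565 of the 766 the host was also the gene with the nearest coding start.

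The nearest coding start was a median of 29735.5 bp from the summit, and 33923 bp for weaker distal regions. It was more than 20 kb away for 910 members (66.04%), over 50 kb for 443 and over 100 kb for 174. Members lay upstream of that start in 42.6% and weaker regions in 34.8%. The gene with the nearest start had an acetylated promoter, a region of the same list within 1000 bp of a start, for 1239 members (89.9%), against 89.3% of weaker regions and 89.4% of all distal regions. With promoters read from the single-replicate lists it was 88.5% and 89.8%. The share in members differed from that in weaker regions by less than 1 percentage point in each list, and it was 76.7% in CpG-rich members.

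Genes of the sarcomere list and of the list of muscle regulators had strong distal regions more often than coding genes at large. The fast and slow fibre lists stood lower, with 2 of 20 and 2 of 16 genes. These counts were close to those of smooth muscle and pericytes (2 of 14) and of fibroblasts (2 of 16). Each member within 100 kb was assigned to the gene with the nearest coding start, which is a convention and not a measured target. By it 1204 members went to 982 genes, 4.73% of the 20780 coding genes of chromosomes 1 to 19, and to 6.86% of the genes with an acetylated promoter. In the replicate 1 and replicate 2 lists the share of all coding genes was 2.55% and 5.71%. Shares from a single-replicate list stand beside these backgrounds and not beside 4.73%. The counts below come from 20 gene lists.

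Of the 23 sarcomere genes 8 (34.8%) had a member, with 26.1% in the replicate 1 list and 39.1% in the replicate 2 list. The strongest lay 16150 bp upstream of Des, which encodes the intermediate filament desmin (chr1:75343051-75348601), with a signal value of 37.7, at percentiles 94.0 and 96.4 of replicates 1 and 2. Synpo2, a Z-disc protein, had 3 members, the strongest at 35.4 in its own intron. Acta1, the skeletal actin, had 1 member 10028 bp downstream at 32.8, percentiles 96.4 and 98.3. Ttn, the giant sarcomere spring, had 2, the strongest of them in an intron of the neighbouring Ccdc141 at 27.7.

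Of 20 genes of calcium handling and the triad, where T-tubules meet the sarcoplasmic reticulum, 6 (30%) had a member, and the share was 30% in each replicate. The strongest lay in introns of Jph2, which tethers these membranes (chr2:163375202-163380431, 39.6, percentiles 96.0 and 95.7), and of Bin1, which shapes the T-tubule (39.6, percentiles 94.1 and 97.2). Cacna1s, the voltage sensor of excitation-contraction coupling, had one in an intron at 37.0, and Camk2b, a calcium-dependent kinase, one at 33.2.

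Of 30 transcription and splicing regulators of muscle 10 (33.3%) had a member, with 20.0% and 40.0% in replicates 1 and 2. The share of all coding genes also rose between these lists, from 2.55% to 5.71%. The strongest member of a regulator gene lay 12370 bp upstream of Nr4a1, an activity-induced nuclear receptor (chr15:101238441-101243420, 41.1, percentiles 97.0 and 95.6). Others were an intron of Rbfox1 (32.3), an intron of Ros1 whose nearest start was that of Vgll2, a cofactor of TEAD factors (31.0), and an intron of Ppfia4 next to the myogenic factor gene Myog (chr1:134300906-134304871, 28.3, percentiles 92.6 and 92.3). Further genes of this list with a member, named after their values were seen, were Mef2d, Mef2a, Myod1, Tbx15 and Tead4, with strongest members between 20.6 and 24.8. Only 4 of the 30 genes (13.3%) kept a member at a signal limit of 25, which also left fewer members for all coding genes.

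Among genes of atrophy and proteolysis 4 of 16 (25%) had a member: Ddit4 with 2, and Cblb, a ubiquitin ligase (30.1), Fbxo31 (29.8) and the calpain gene Capn3 (20.7) with 1 each. Glycolysis and glycogen had 3 of 17. Of 14 genes of the neuromuscular junction, Dok7, an activator of the receptor kinase MuSK, alone had a member, in its intron (35.2). Metabolic regulators had 2 of 20 (10%), Tfam (39.9) and Ppard (33.8). Their share was 15% in replicate 1 and 20% in replicate 2, and up to 40% among the alternative settings. The share of all coding genes was 2.55% and 5.71% in these replicates and was not the same in every setting.

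Fibre type genes had members in 2 of 20 fast and 2 of 16 slow genes. Of 20 fast genes Tpm1, which encodes a tropomyosin, had 3 members and Myh2, the myosin of fast oxidative fibres, had 1, and the share of 10% in the replicated list stood beside 15% in each single-replicate list. The strongest Tpm1 member lay 28213 bp upstream (chr9:67075949-67079566) with a signal value of 32.7, at percentiles 90.4 and 95.1 of replicates 1 and 2, and its window held 1 CAGCTG E-box. The Myh2 member lay 30434 bp upstream (chr11:67137507-67145376), between genes, with a signal value of 23.95 and percentiles of 90.05 and 89.7, and also held 1 E-box. Its width of 7870 bp came close to the upper limit of the rule. Of 16 slow genes Tead1, a factor of slow gene activity, had an intronic member at 24.7, percentiles 85.1 and 92.3, and Sox6, a repressor of slow genes, had one at 20.2, percentiles 82.5 and 88.6. Neither slow gene kept a member at a signal limit of 25.

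Lists of other cells of the tissue had 0 to 2 genes with a member each. Smooth muscle and pericytes had 2 of 14 genes (14.3%), Mylk and Abcc9, fibroblasts 2 of 16, Tcf7l2 and Prrx1, endothelium 1 of 18, Pecam1 (chr11:106670937-106676576, 36.5, percentiles 92.6 and 96.0), macrophages 1 of 15, Spi1 (33.2), and satellite cells 1 of 15, Fgfr4 (30.2). The Pecam1 member lay in an intron of this endothelial adhesion gene and the Spi1 member in an intron of the gene for the myeloid factor PU.1, with 1 MEF2 site and 2 E-boxes in its window. The Spi1 region also held a curated RefSeq start of Spi1 itself, so it is distal only by the basic set. A start of the comprehensive set or of RefSeq also lay within 1 kb of the strongest members of Myh2, Myog, Dok7, Fbxo31 and Mylk. The smooth muscle, fibroblast and satellite cell lists were above the share of all coding genes in 8 of 8 settings. The endothelial list was above it in 7 of 8, with shares from 5.56% to 22.2% over the settings. The settings cut the same regions again and also change the share of all coding genes. In a list of 15 genes, 1 gene (6.67%) is already above 4.73%. These counts of settings are therefore not separate support for a higher share. The circadian list had 2 of 19, Hlf, a clock-controlled bZIP factor (22.5, percentiles 82.1 and 91.1), and Arntl, the clock factor BMAL1 (20.8, percentiles 86.8 and 85.9). Adipocyte, Schwann cell, cardiac, liver and neuron lists had 0 members, and in both single-replicate lists these 5 were also at 0. With 11 to 30 genes a list, 1 gene moves a share by 3 to 9 percentage points, and shares near 4.73% cannot be told apart from the background.

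**Figure D5:**
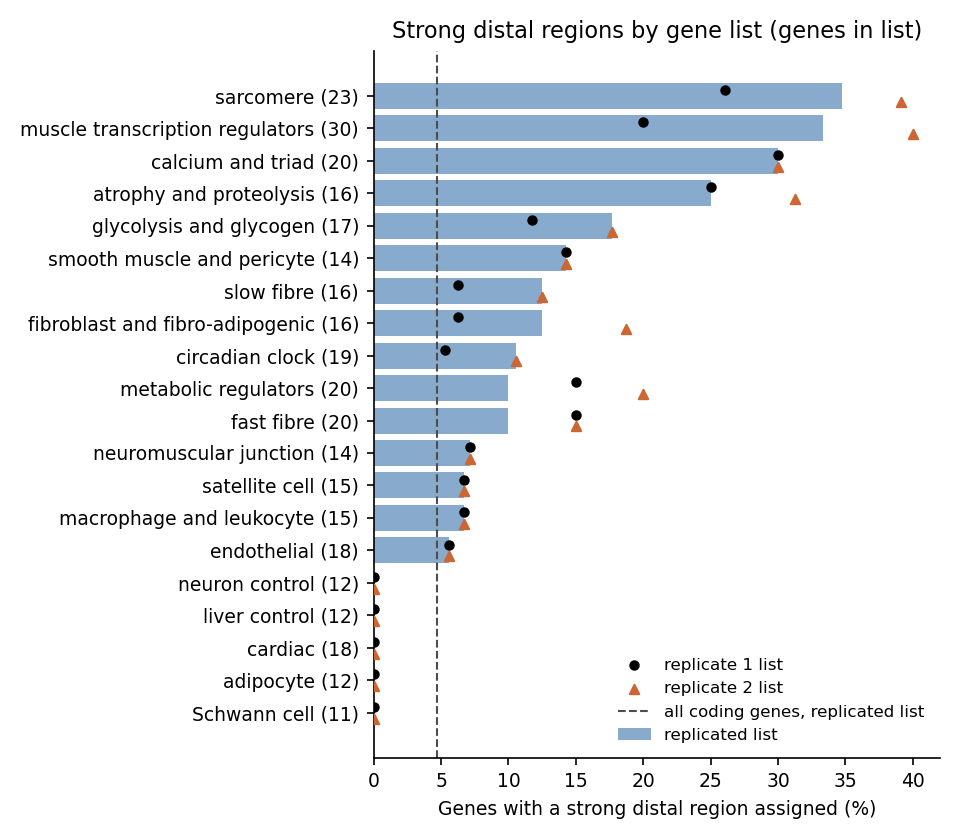
Percent of the genes of each list with a strong distal region assigned, in the replicated list (bars), replicate 1 (circles) and replicate 2 (triangles). The dashed line is the share of all coding genes in the replicated list (4.73%). That share was 2.55% in replicate 1 and 5.71% in replicate 2, which the line does not show. Sarcomere, regulator, triad and atrophy lists lie at 25% or more in the replicated list, and 5 lists are at 0 in all 3.

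The muscle genes' own members carried few MEF2 sites at the summit. 47 members were assigned to 36 genes of 8 muscle lists (fast fibre, slow fibre, sarcomere, triad, glycolysis, regulators, neuromuscular junction and atrophy), and 1 of the 47 (2.13%, exact 95% binomial interval 0.0539% to 11.3%, counting error only) had a MEF2 site in its summit window, that of Cblb. Among the other 1331 members 192 (14.4%, interval 12.6% to 16.4%) had one. With the metabolic regulators as a list of muscle too, a setting added after the values had been seen, the count was 2 of 49 (4.08%, interval 0.498% to 14.0%), the other being that of Ppard. The E-box stood in 20 of the 47 (42.6%) and in 37.6% of the others. Over the whole region instead of the window, 24 of the 47 (51.1%) and 48.7% of the others held a MEF2 site, at 0.165 and 0.200 sites per kb. The 47 were wider, with a median of 4980 bp against 3519 bp, 0 of them were CpG-rich, and the nearest gene had an acetylated promoter in 47 of 47. This comparison was made after the values had been seen and was not tested.

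Most genes with a member had 1 (813 of 982), 128 had 2, 31 had 3 and 10 had 4 or more. Fam92b and Sgms1 had 5 each. The 5 of Sgms1, a sphingomyelin synthase, lay in its introns, with signal values from 23.8 to 29.0. Those of Fam92b lay inside Gm20388, and 4 of them also inside Gse1, whose own coding starts in the GENCODE basic set were farther away. The assignment of these 4 depended on that set. Fam92b started 73787 to 93142 bp from their summits, and the comprehensive GENCODE set had a start 19088 to 41160 bp from their edges. Chd2, a chromatin remodeller, had 4 with signal values from 23.5 to 49.3, and Lpp, a LIM protein of focal adhesions, had 4 from 24.4 to 34.4.

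Some members stood in groups. 227 members (16.5%) were within 12500 bp of another member, in 92 pairs, 13 groups of 3 and 1 group of 4, and the share was 13.9% in replicate 1 and 20.1% in replicate 2. The group of 4 was the one in Gse1. Among the groups of 3, picked after their values were seen, 1 lay in introns of Akap6, an anchor of protein kinase A at the nuclear envelope of muscle, with signal values of 25.5, 22.9 and 26.1 over 25.2 kb. Another lay in Arhgap26, 1 of its 3 members being assigned to the neighbouring Nr3c1, the glucocorticoid receptor, with 38.8, 26.9 and 27.01 over 29.8 kb. Another group joined a member downstream of Fgfr4 (30.2) with 2 members assigned to Nsd1, a histone methyltransferase (27.03 and 32.5), over 23.6 kb. Near Irf2bpl, a transcriptional regulator, 3 members with 51.2, 24.8 and 38.4 spanned 29.2 kb, and the narrowest region left out for its width lay beside them. A region of 8000 bp or wider lay within 12500 bp of 125 members (9.07%), against 5.37% of weaker distal regions.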

How the data were processed

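H3K27ac was measured in 4 libraries of 1 group (2 biological replicates, 2 technical libraries each). The authors deposited peak lists on mm10 with, for each peak, a signal value, a −log10 q-value and a summit; of these the signal and the summit were used throughout and the −log10 q-value, deposited by the authors, in 1 alternative only. Per the deposited library descriptions, 1 list came from each replicate, 1 from both pooled and the replicated list from both. Nothing in the labels or headers names the aligner, the peak caller or its filters, the depth is unknown, and intervals cover counting error only.

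Members, gene lists and motifs were chosen with earlier results of these data known. Genes came from GENCODE M21 and RefSeq, sequence from the GRCm38 (mm10) assembly of RefSeq. Regions were shared at an overlap of at least 50% of the shorter one. Motifs were consensus strings matched to both strands of the window of 250 bp to each side of the summit, and CpG ratios were observed over expected. Named genes were the 15 strongest members, up to 4 genes per list, genes with most members, threshold neighbours, members with most motif matches and members at curated RefSeq starts. Functions were tested on simulated data. Python 3.11.15, pandas 2.3.3, numpy 2.4.6, pysam 0.24.0 and samtools 1.23.1 were used.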

Additional observations from a re-analysis of the deposited data

How the results depend on the processing

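The number of members was 726 at a signal limit of 25 and 2707 at 15, and 704 to 1740 in the single-replicate lists. The share in both replicate lists was 91.7% when at least 50% of both regions had to overlap. The share inside coding genes was 59.1% at a limit of 15, 60.4% with genes of any type and 51.5% without regions near starts of the other sets. The share with an acetylated nearest promoter was 88.8% at a limit of 25 and 89.3% with promoters of 500 bp, and it lay between 89.3% and 89.8% in the single-replicate lists.

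The MEF2 difference between members and weaker regions, in percentage points, was above 0 in all 12 alternatives: 6.69 at a limit of 25, 4.05 at 15, 3.38 to 4.24 in the single-replicate lists, 0.692 and 6.59 with windows of 150 and 500 bp to each side, 4.62 at the region's middle, 6.44 without CpG-rich windows, 8.38 at 45 to 55% GC and 6.30 without regions near other starts. The E-box difference was above 0 in all 12 as well: 7.24 at a limit of 25, 8.44 beyond 10 kb from starts, 6.84 in the pooled list, 6.81 to 7.05 in the single-replicate lists, 2.03 and 8.92 with windows of 150 and 500 bp, 1.80 at the region's middle, 7.56 without CpG-rich windows, 4.12 at 45 to 55% GC and 6.60 without regions near other starts. The AP-1 difference turned to -0.368 points with windows of 150 bp and the CCAAT difference to 0.413 points at 45 to 55% GC. The cause was not tested.

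The median GC content was 49.2% at the region's middle. The median CpG ratio was 0.283 at a limit of 25 and 0.248 to 0.272 in the single-replicate lists. Members within reach of another were 26.1% at a limit of 15, and 9.87% and 24.0% with reaches of 5 and 25 kb. The share of sarcomere genes was 47.8% and of triad genes 45% at a limit of 15, and that of regulator genes 13.3% at 25. These limits also changed the number of members, so the shares are not to be set against the 4.73% of all coding genes. Each of these lists was above the share of all coding genes at the same setting in 8 of 8 settings. The comparisons without CpG-rich windows, at 45 to 55% GC and without regions near other starts were added after the data had been seen. No paired analysis was possible because the series has 1 group. Unknown depth and 2 replicates limit the precision of every value.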

Other observations

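Strong distal regions were not spread evenly over the chromosomes. Chromosome 11 held 123 members, 10.1 per 10 Mb, and chromosome 3 held 56, 3.50 per 10 Mb. As a share of all distal regions on the chromosome, members were 3.33% on chromosome 11, 3.47% on chromosome 16 and 2.34% on chromosome 3. These shares ranged from 2.09% on chromosome 10 to 3.47% on chromosome 16, a narrower range than that of the densities. Repeats were scarcer at member summits: 15 members (1.09%) had a summit window with more than 50% soft-masked bases, against 3.63% of weaker distal regions.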
